A study of Mus musculus with 6 samples.

Results

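The 10 genes described here carry the calcium signal from the cell surface to the nucleus: Orai1, Stim1, Stim2, Itpr1, Itpr2, Ppp3ca, Ppp3cb, Nfatc1, Nfatc2 and Nfatc3. They were chosen by name, for their place in this route, from the 17831 genes of the deposited table, with earlier results of these data known. All 10 passed the filter on low counts, as did 13623 genes of the table in all. RNA sequencing was performed on lung group 2 innate lymphoid cells (ILC2s), which are tissue-resident lymphocytes without antigen receptors that release type 2 cytokines. The WT group is labelled CB57BL/6 and the SIRPα KO group carries the allele SIRPalphatm1Ynliu/J, with 3 libraries in each group. Per the study's methods, mice of both groups were 6 to 8 weeks old, received 0.5 µg of rmIL-33 intranasally on 3 days, and had lung ILC2s sorted on day 4 as CD45+ lineage- CD127+ ST2+ cells. The cells were then kept in rmIL-2 and rmIL-7, for 18 h in one account and 24 h in another. Both groups were thus exposed to IL-33, and no resting cells were compared.

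Calcium release from the endoplasmic reticulum is opened by IP3 receptors, which respond to IP3, a soluble product of phospholipase C. STIM proteins sense the emptied store and open ORAI channels in the plasma membrane, a process called store-operated calcium entry. The calcium that enters activates calmodulin and then the phosphatase calcineurin, which strips phosphate from NFAT proteins so that they move to the nucleus and bind DNA. In ILC2s and T cells this route is known for driving cytokine genes.

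Library totals ranged from 13980499 to 19051507 counts. Sirpa, the targeted gene, had 149, 96 and 73 reads in the WT libraries and 48, 85 and 28 in the SIRPα KO libraries, so reads were still assigned to it after the knockout. In counts per 1000000 of the library (CPM) these are 8.57, 6.83 and 4.83 against 3.07, 4.46 and 1.74, and the groups did not overlap, although edgeR's quasi-likelihood test gave a log2 fold change of -1.12 ± 0.42 (SE, n = 3 per group) with an adjusted p of 0.115. Which part of Sirpa the allele lacks is not given in the sources used here. The ILC2 markers Gata3 (846 to 1078 CPM over the 6 libraries) and Il1rl1, which encodes the IL-33 receptor ST2 (376 to 937 CPM), were high throughout. B cell markers summed to 216 to 479 CPM in WT against 23.1 to 84.6 CPM in SIRPα KO, with 5 of 6 lower by the test. NK cell markers summed to 13.9 to 25.3 CPM against 1.73 to 3.73 CPM, with 3 of 5 lower, and T cell markers to 206 to 273 CPM against 123 to 132 CPM, with 3 of the 4 tested lower. Most of the T cell sum was Trbc2 (132 to 179 against 89.7 to 95.5 CPM), and Trbc1 and Cd3g were lower too. Cd3e (0.397 to 2.42 against 0.735 to 1.66 CPM), Cd3d, Cd4 and Cd5 were near the floor and overlapped between groups. Macrophage and dendritic cell markers overlapped in sum (45.2 to 130 CPM against 84.6 to 129 CPM, 1 of 7 higher), and Lyz2 was the largest part. Itgam (0.46 to 3.98 against 9.33 to 13.3 CPM) was higher without overlap. Mrc1 and C1qb, near the floor, were higher without overlap too. Lyz2, Csf1r, Adgre1, Cd68, Itgax and C1qa overlapped, and C1qa was at 0 in every WT library. Lung structural cell markers (67.7 to 92.5 CPM against 49.2 to 113 CPM, with 1 higher and 1 lower of the 4 tested) and mast cell and basophil markers (7.07 to 20.9 CPM against 0.992 to 10.8 CPM, 0 of 2 called) overlapped. Erythroid markers summed to 6.26 to 9.6 CPM against 1.92 to 2.17 CPM, with the 1 tested lower. S100a8, the neutrophil marker present in the table, stayed under 1 CPM. The 14 ILC2 markers summed to 15489 to 16649 CPM against 21299 to 21842 CPM, with 3 higher and 2 lower. Il5 made up most of this sum (8448 to 9711 against 12589 to 13241 CPM). Il2ra (1406 to 2064 against 3417 to 3473 CPM), Il1rl1, Il7r, Ptprc and Il13 were also higher without overlap. Id2 (1129 to 1403 against 782 to 849 CPM), Thy1, Icos, Klrg1 and Arg1 were lower without overlap. B, T and NK cells also express members of the calcium and NFAT route. Per the methods the sort left out cells with CD3ε, TCRβ, B220 or CD335 on their surface, which mark these cells, and their part in the results below was not tested. The part of macrophages and dendritic cells was not tested either. In bulk libraries, fewer cells of a type and less RNA per cell cannot be told apart.

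WT replicate 3 stood apart from the other libraries. It held the lowest WT level of 9 of the 10 genes and the highest of the remaining one, Orai1, so each result below is also given without it where that changed the call. The 10 genes varied more among WT libraries (median coefficient of variation 31.1%) than among SIRPα KO libraries (10.8%). This was not particular to them. Over all genes tested, edgeR's common biological coefficient of variation, another measure of spread, was 38% in WT and 15.2% in SIRPα KO. The labels give 2 of the 3 libraries of each group the same code (WT replicates 1 and 2, SIRPα KO replicates 2 and 3), and the design text of the series speaks of duplicates, although 3 libraries per group are labelled. If libraries of 1 code came from the same cells, n is 2 in place of 3 and the p-values below are too small. All 6 libraries were counted singly, and with libraries of 1 code summed 10 genes in the whole table and 0 of the 10 genes passed.

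Among the 10 genes, Orai1, the pore of the store-operated channel, fell and Nfatc3, an NFAT transcription factor, rose in SIRPα KO ILC2s. Orai1 was 1.69-fold lower and Nfatc3 2.04-fold higher, and the other 8 genes did not pass the test. The Orai1 call was lost when transcript length and GC content were corrected for (log2 fold change -0.29, adjusted p = 0.201), and both calls were lost when any 1 SIRPα KO library or WT replicate 1 was left out, or when libraries of 1 code were summed. By edgeR's quasi-likelihood test with Benjamini-Hochberg adjustment over all 13623 genes, 2 of 10 genes were past an adjusted p of 0.05, beside 11.7% of all genes tested (5.94% higher and 5.81% lower). The groups of libraries did not overlap for 3 of the 10, Orai1, Itpr1 and Nfatc3, beside 42.8% of all genes. The genes are therefore described one by one, and nothing particular to the group is read from these counts. The median log2 fold change of the 10 was 0.14, beside -0.025 for all genes tested. With the length and GC correction the order reversed, with -0.044 for the 10 beside 0.067 for all genes.

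**Figure D1:**
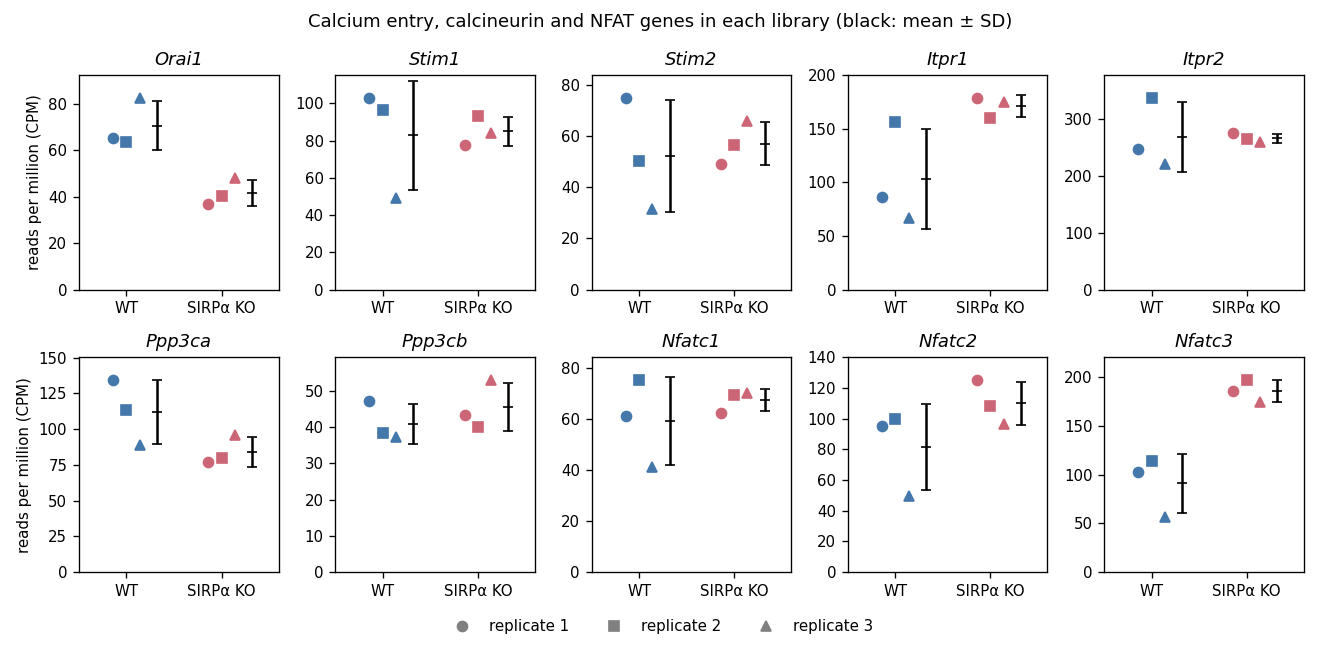
Expression of the 10 genes in CPM (vertical axes from 0), with WT libraries in blue and SIRPα KO libraries in red; circles, squares and triangles are replicates 1, 2 and 3, and black marks are the mean ± SD of 3 libraries. The SIRPα KO libraries lie below all WT libraries for Orai1 (36.9 to 47.9 against 63.6 to 82.7 CPM) and above them for Nfatc3 (175 to 197 against 56.8 to 114 CPM) and Itpr1 (160 to 179 against 66.8 to 156 CPM).

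Because Orai1 and Nfatc3 were the genes past the threshold, the 250 bases before their annotated starts are shown, from RefSeq on build GRCm38.p6, which is the mm10 assembly that the submitters' processing notes name. Promoters of 7 of the 10 genes were found in the reference. Capitals mark the NFAT core GGAAA and the GC box GGGCGG, a motif that Sp-family factors bind, each searched on both strands. Nfatc3 has 2 annotated starts, and the windows before both are on the plus strand, as is that of Orai1.
Orai1, chr5:123014824-123015073: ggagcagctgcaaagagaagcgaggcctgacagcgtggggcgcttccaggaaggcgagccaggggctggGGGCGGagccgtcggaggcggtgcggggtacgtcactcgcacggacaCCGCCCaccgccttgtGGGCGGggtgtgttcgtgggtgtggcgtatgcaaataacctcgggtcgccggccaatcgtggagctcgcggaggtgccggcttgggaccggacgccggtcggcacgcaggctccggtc
Nfatc3, first start, chr8:106058568-106058817: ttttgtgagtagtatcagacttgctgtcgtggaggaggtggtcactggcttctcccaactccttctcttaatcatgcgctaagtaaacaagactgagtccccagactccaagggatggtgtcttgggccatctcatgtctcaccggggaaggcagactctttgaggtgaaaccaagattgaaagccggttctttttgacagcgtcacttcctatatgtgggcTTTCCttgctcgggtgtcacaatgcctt
Nfatc3, second start, chr8:106059340-106059589: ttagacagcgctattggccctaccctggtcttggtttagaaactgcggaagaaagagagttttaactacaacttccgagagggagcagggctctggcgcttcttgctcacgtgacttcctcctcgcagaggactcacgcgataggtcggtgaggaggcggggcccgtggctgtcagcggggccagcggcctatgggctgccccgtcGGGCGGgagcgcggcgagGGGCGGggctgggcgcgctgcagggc
The Orai1 window held 3 GC boxes and no NFAT core, with a GC content of 70.8%. The first Nfatc3 window held 1 NFAT core and no GC box at 49.6% GC, and the second held 2 GC boxes and no NFAT core at 65.2% GC. An NFAT core was present in 55.6% of the 32851 promoter windows of the same length and a GC box in 32.7%. The AP-1 motif TGANTCA, often found next to NFAT sites, was in none of these 3 windows and in 6.75% of all windows, with no overlap possible with the NFAT core. Among genes that were not called, the windows of Stim1, Stim2, Itpr2 and Ppp3cb and the second of Nfatc2 also held GC boxes. Those of Stim1, Stim2 and Itpr2 held no NFAT core either. These matches describe letters and are not binding sites.

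Store-operated calcium entry was examined first. Orai1 (chr5:123015074-123030456, plus strand, mm10) was at 65.4, 63.6 and 82.7 CPM in WT replicates 1, 2 and 3. In SIRPα KO replicates 1, 2 and 3 it was at 36.9, 40.2 and 47.9 CPM. All SIRPα KO libraries lay below all WT libraries, and the highest value was in WT replicate 3. The mean was 70.6 ± 10.5 CPM in WT against 41.7 ± 5.62 CPM in SIRPα KO (SD, n = 3 each), with a log2 fold change of -0.76 ± 0.17 (SE; edgeR, adjusted p = 0.0312). Its exons share 7 bases with Gm2479, an antisense gene on the other strand, and the library kit does not mark strand.

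The 2 calcium sensors of the endoplasmic reticulum did not follow Orai1. Stim1 (chr7:102267806-102437319), the principal sensor, was at 103, 96.6 and 49.4 CPM in WT against 77.8, 93.2 and 84.2 CPM in SIRPα KO. Stim2 (chr5:53998499-54121057), which responds to smaller losses of store calcium, was at 74.9, 50.3 and 31.3 CPM against 48.9, 56.3 and 65.9 CPM. For both genes the SIRPα KO libraries lay inside the WT range, whose low end was WT replicate 3. The log2 fold change was 0.035 ± 0.26 for Stim1 and 0.13 ± 0.30 for Stim2 (SE; edgeR, adjusted p = 0.939 and 0.794). Stim1 was below 0 without WT replicate 3 (-0.22) and with upper quartile scaling (-0.049), so no direction can be given for it. The log2 ratio of Orai1 to Stim1 reads was -0.17 ± 0.79 in WT and -1.03 ± 0.20 in SIRPα KO (SD, n = 3), a difference of -0.86. The SIRPα KO libraries were below all WT libraries, and an exact two-sided permutation test gave p = 0.1, the smallest that 3 against 3 libraries allow (adjusted p = 0.14 over 7 ratios). The large WT spread came from WT replicate 3, where the ratio was 0.74, against -0.66 and -0.60 in the others, and the difference was -0.40 without it. The log2 ratio of Stim2 to Stim1 differed by 0.10 (exact permutation p = 0.6), with overlapping groups.

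The other ORAI channels gave no call. Orai2 was at 59.9 to 87.8 CPM in WT against 68.1 to 69.2 CPM in SIRPα KO, and Orai3 at 18.7 to 24.1 CPM against 13.3 to 19.4 CPM. Their log2 fold changes were -0.095 ± 0.16 and -0.38 ± 0.22 (SE; edgeR, adjusted p = 0.715 and 0.264). Per kilobase of transcript, Orai1 made up 56.5 ± 5.36% of the summed ORAI level in WT and 46.8 ± 3.02% in SIRPα KO (SD, n = 3), and Orai2 27.9 ± 6.16% against 36.5 ± 2.7%. By this measure Orai1 was the most abundant of the 3 in every library. In CPM, without division by length, Orai2 was above Orai1 in all SIRPα KO libraries (68.1 to 69.2 against 36.9 to 47.9). It was also above it in WT replicates 1 and 2 (87.8 against 65.4 and 72.5 against 63.6), but not in WT replicate 3. These shares are without the length and GC correction described below.

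IP3 receptors release the store. Itpr1 (chr6:108213096-108551109) was at 86.4, 156 and 66.8 CPM in WT replicates 1, 2 and 3 and at 179, 160 and 175 CPM in SIRPα KO. The groups did not overlap, but WT replicate 2 came close to the lowest SIRPα KO library. The log2 fold change was 0.74 ± 0.28 (SE; edgeR, adjusted p = 0.121). DESeq2 put Itpr1 past the threshold with the same estimate (adjusted p = 0.0409, beside 26.5% of the genes to which DESeq2 gave an adjusted p), as did edgeR without WT replicate 2 (log2 fold change 1.16, adjusted p = 0.0137). Exons of Itpr1 overlap 2 genes on the other strand, Gm44040 and Gm44101, which reached at most 0.32 and 1.79 CPM.

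Itpr2 (chr6:146108299-146502223, minus strand) was at 247, 337 and 220 CPM in WT against 275, 264 and 259 CPM in SIRPα KO. The SIRPα KO libraries sat inside the WT range, with a log2 fold change of -0.0097 ± 0.16 (SE; edgeR, adjusted p = 0.975). Itpr3, the remaining receptor of the family, was at 31.2, 45.2 and 35.5 CPM against 47.9, 48.5 and 50.4 CPM, without overlap but short of the threshold (log2 fold change 0.39 ± 0.17, adjusted p = 0.16). The 2 main receptors were then compared within each library, so that the library's scaling cancels. The log2 ratio of Itpr2 to Itpr1 was 1.51, 1.11 and 1.72 in WT and 0.62, 0.72 and 0.57 in SIRPα KO, with no overlap. The difference was -0.81 (exact permutation p = 0.1, adjusted p = 0.14) and stayed between -0.98 and -0.68 when any 1 library was left out. Per kilobase, Itpr1 was 22.9 to 31.8% of the family in WT and 36.7 to 38.9% in SIRPα KO, while Itpr2 was 58.1 to 63.8% against 48.8 to 51.1%.

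Calcineurin is made of a catalytic A subunit and a regulatory B subunit. Ppp3ca (chr3:136670124-136937727), the A subunit alpha, was at 134, 113 and 88.8 CPM in WT against 76.7, 79.6 and 96.1 CPM in SIRPα KO. Only WT replicate 3 lay within the SIRPα KO range. The log2 fold change was -0.41 ± 0.18 (SE; edgeR, adjusted p = 0.153), and without WT replicate 3 it was -0.55 with an adjusted p of 0.0324. Ppp3cb (chr14:20499364-20546573, minus strand), the A subunit beta, was at 47.2, 38.2 and 37.1 CPM against 43.4, 40.1 and 52.8 CPM. These groups overlapped, and the log2 fold change was 0.15 ± 0.17 (SE; edgeR, adjusted p = 0.567). The log2 ratio of Ppp3cb to Ppp3ca was -1.50, -1.57 and -1.26 in WT and -0.82, -0.99 and -0.86 in SIRPα KO. All SIRPα KO values were above all WT values, by 0.55 on average (exact permutation p = 0.1, adjusted p = 0.14).

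The third A subunit, Ppp3cc, was at 25.1 to 38.3 CPM in WT against 26.5 to 27.7 CPM in SIRPα KO (log2 fold change -0.30 ± 0.20, edgeR adjusted p = 0.319). Without WT replicate 3 it was -0.46, with an adjusted p of 0.0444. Ppp3r1, which encodes the regulatory B subunit, rose from 137 ± 25.7 to 209 ± 2.43 CPM (SD, n = 3; log2 fold change 0.61 ± 0.15, edgeR adjusted p = 0.0372). It was at 125, 166 and 119 CPM in WT against 210, 206 and 211 CPM in SIRPα KO. Per kilobase, Ppp3r1 was 1.02 ± 0.202 times the sum of the 3 A subunits in WT and 1.82 ± 0.149 times in SIRPα KO (SD, n = 3), a ratio chosen after its values were seen and therefore not tested. The call of Ppp3r1 was lost without WT replicate 1 (adjusted p = 0.0755). The calcineurin inhibitors did not pass. Rcan1, itself a textbook readout of NFAT activity, was at 17.4 ± 2.88 CPM against 17.7 ± 0.9 CPM, and Rcan3 at 40.1 ± 10.2 CPM against 42.8 ± 4.04 CPM (SD, n = 3; edgeR, adjusted p = 0.936 and 0.779).

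The NFAT factors came last in the order of the route. Nfatc3 (chr8:106058840-106130537) was at 103, 114 and 56.8 CPM in WT replicates 1, 2 and 3 and at 186, 197 and 175 CPM in SIRPα KO. The SIRPα KO libraries lay close together and above all WT libraries, whose lowest was WT replicate 3. The mean rose from 91.4 ± 30.5 to 186 ± 11.2 CPM (SD, n = 3), a log2 fold change of 1.03 ± 0.24 (SE; edgeR, adjusted p = 0.036). Without WT replicate 3 it was 0.78 with an adjusted p of 0.00384. Exons of Nfatc3 share 219 bases with Esrp2 on the other strand, a gene at 0 to 0.63 CPM.

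Nfatc1 (chr18:80606205-80713071, minus strand), which lymphocytes induce on activation, was at 61.2, 75 and 41.1 CPM in WT against 62.2, 69.3 and 70 CPM in SIRPα KO. Nfatc2 (chr2:168476410-168601657, minus strand), which resting lymphocytes already hold, was at 95.5, 99.8 and 49.5 CPM against 125, 108 and 96.9 CPM. Both overlapped between groups, with log2 fold changes of 0.19 ± 0.22 and 0.43 ± 0.26 (SE; edgeR, adjusted p = 0.583 and 0.283). Nfat5, the calcium-independent relative known for the response to salt, was at 36.9 to 55.7 CPM in WT against 61.3 to 80 CPM in SIRPα KO, just short of the threshold (log2 fold change 0.69 ± 0.20, adjusted p = 0.0612). It passed with DESeq2 (adjusted p = 0.0103) and without WT replicate 2 (0.90, adjusted p = 0.0221), but was 0.16 after the length and GC correction described below.

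The NFAT genes were also compared within each library. The log2 ratio of Nfatc3 to Nfatc2 was 0.11, 0.19 and 0.20 in WT and 0.58, 0.87 and 0.85 in SIRPα KO, and that of Nfatc3 to Nfatc1 was 0.76, 0.61 and 0.47 against 1.58, 1.51 and 1.32. Neither pair of groups overlapped. The differences were 0.60 and 0.86 (exact permutation p = 0.1 and adjusted p = 0.14 for each). WT replicate 3 did not stand apart in the ratio to Nfatc2, since its low level was shared by both genes. Nfatc2 to Nfatc1 differed by 0.27 with overlap (exact permutation p = 0.2, adjusted p = 0.233). Per kilobase, Nfatc3 was 39.2, 38.7 and 37.5% of the 3 NFATs in WT and 49.9, 52.1 and 50.4% in SIRPα KO, with Nfatc1 at 31.5 ± 2.44% against 22.9 ± 2.16% (SD, n = 3).

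**Figure D2:**
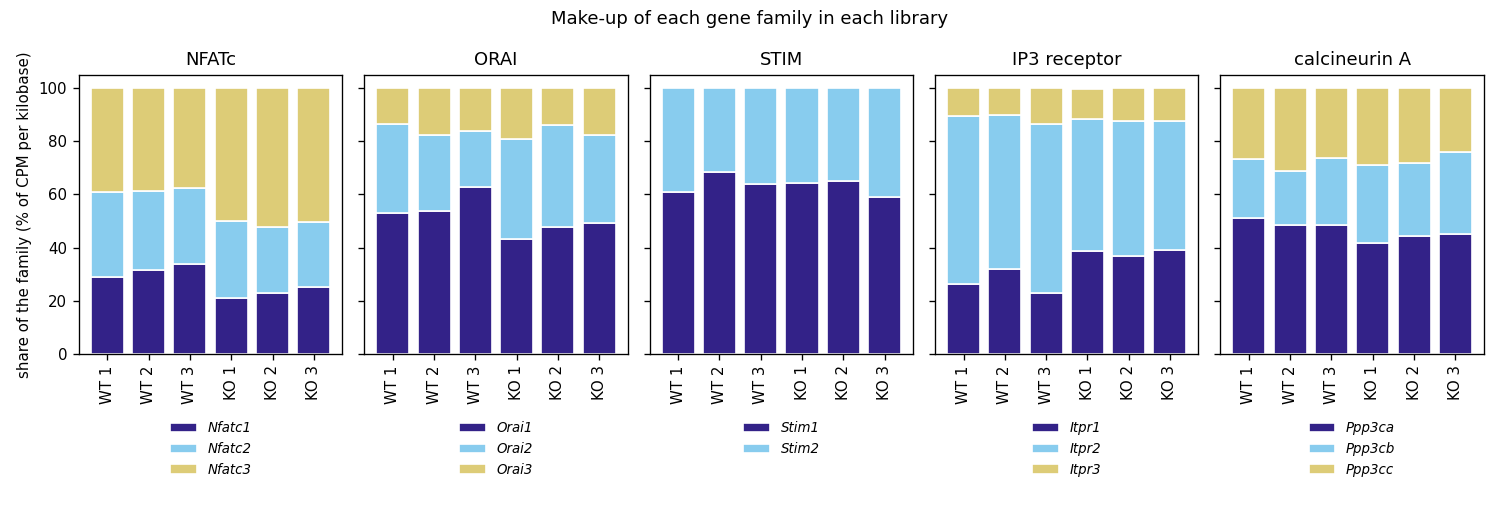
Share of each family's summed level (percent of CPM per kilobase of the longest transcript, vertical axis) taken by each gene, as stacked bars for the 3 WT and 3 SIRPα KO libraries. The share of Nfatc3 is 37.5 to 39.2% in WT and 49.9 to 52.1% in SIRPα KO, and that of Itpr1 22.9 to 31.8% against 36.7 to 38.9%, while Stim1 takes 60.9 to 68.5% against 59.1 to 65.2%.

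Per kilobase of the longest transcript, the order of the 10 genes also differed. In WT, Orai1 was highest at 37.6 ± 5.62 CPM per kilobase, apart from the next, Ppp3ca, at 23.5 ± 4.71 (SD, n = 3). From Ppp3ca down through Itpr2, Stim1, Nfatc3, Nfatc1, Nfatc2, Ppp3cb and Stim2 to Itpr1 at 10.4 ± 4.73, every neighbour in the order overlapped the next. In SIRPα KO, Nfatc3 was highest at 31.1 ± 1.86 CPM per kilobase, apart from Itpr2 at 22.8 ± 0.681, and Orai1 was the third at 22.2 ± 3. The order depends on the length used: by merged exons, Orai1 was highest in both groups and Nfatc3 the third in SIRPα KO.

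Transcript length moved with the comparison across the transcriptome. When genes with a matched annotation and at least moderate expression (log2 CPM of 3 or more) were split into 10 equal groups by the length of their longest transcript, the median log2 fold change climbed from -0.55 in the shortest to 0.47 in the longest. The median transcript was 4865 bases for the 10 genes and 3057 for all genes tested, and 9 of the 10 were above that median. Orai1, at 1875 bases, is the short exception, and its length group had a median of -0.28 against its own -0.76. Nfatc3, at 5984 bases, lies in a length group with a median of 0.36 against its own 1.03. The cause of the trend was not tested.

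**Figure D3:**
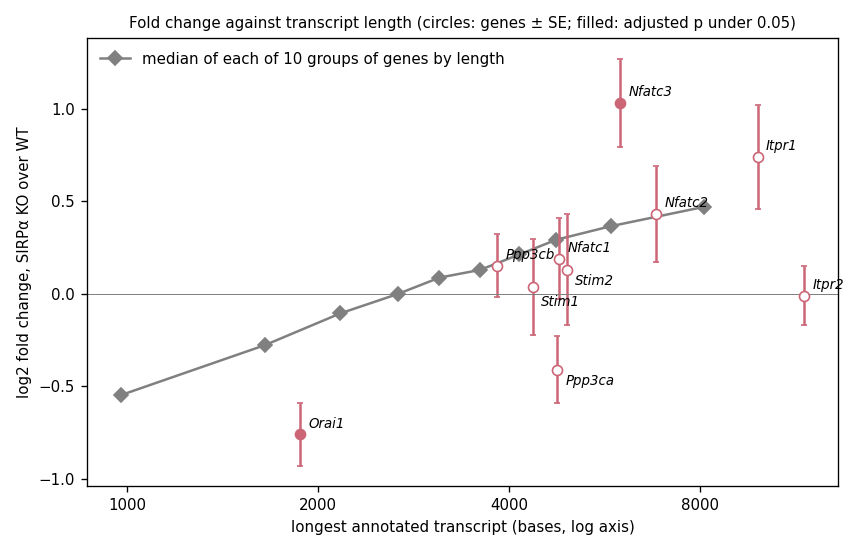
Log2 fold change of SIRPα KO over WT (vertical axis) against the longest annotated transcript in bases (log axis). Grey diamonds are medians of 10 equal groups of genes by length, from -0.55 to 0.47. Red circles are the 10 genes ± SE, filled where the adjusted p is under 0.05. Orai1, Ppp3ca, Stim1, Stim2 and Nfatc1 lie below the grey line, Nfatc3 above it, and Ppp3cb and Nfatc2 close to it. Itpr1 (0.74) and Itpr2 (-0.0097) have longer transcripts than its last point.

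With transcript length and GC content fitted and removed in each library, 2 of the 10 genes were again past the threshold, beside 8.6% of all genes, but they were not the same 2. Nfatc3 still rose (log2 fold change 0.69 ± 0.16, edgeR adjusted p = 0.0401). Orai1 no longer passed (-0.29 ± 0.13, adjusted p = 0.201), although its corrected levels of 57.7, 61.8 and 59.7 CPM in WT stayed above the 43.7, 47.6 and 55.2 CPM in SIRPα KO. Ppp3ca fell (-0.70 ± 0.14, adjusted p = 0.0254), with 139, 116 and 114 CPM against 68.9, 71.6 and 86.8 CPM. Itpr2 also separated into non-overlapping groups, with 281 to 341 CPM in WT against 224 to 242 CPM in SIRPα KO, just short of the threshold (-0.39 ± 0.10, adjusted p = 0.053). Without WT replicate 3 as well, it passed (-0.41, adjusted p = 0.036). The estimate for Itpr1 shrank to 0.39, and those for Stim2 and Ppp3cb turned to -0.11 and -0.13. Among the ratios, Itpr2 to Itpr1 was -0.83 and Ppp3cb to Ppp3ca 0.57 after the correction, against -0.81 and 0.55 before it. Those of Nfatc3 to Nfatc1 and to Nfatc2 moved from 0.86 and 0.60 to 0.58 and 0.39, that of Orai1 to Stim1 from -0.86 to -0.37, and that of Stim2 to Stim1 from 0.10 to -0.13.

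**Figure D4:**
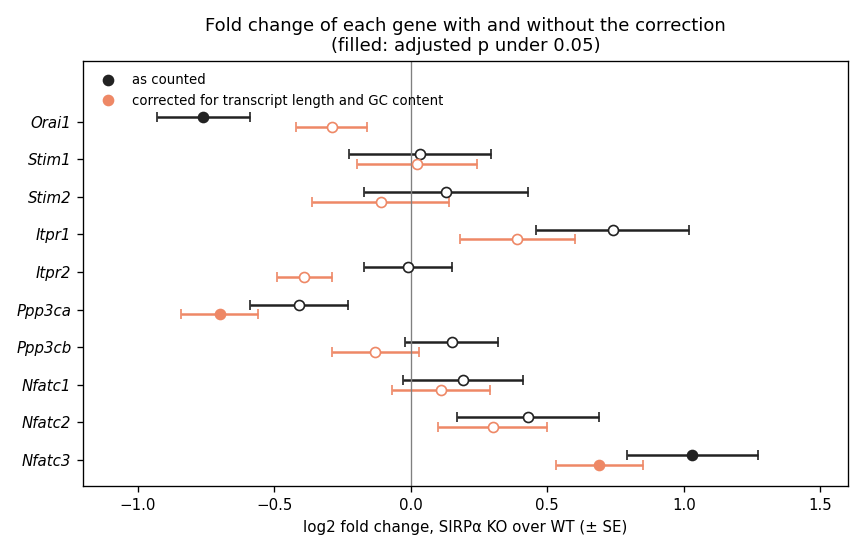
Log2 fold change of SIRPα KO over WT (horizontal axis, ± SE) for each of the 10 genes, as counted (black) and after correction for transcript length and GC content (orange), filled where the adjusted p is under 0.05. Nfatc3 is filled in both, Orai1 before the correction (-0.76, then -0.29) and Ppp3ca after it (-0.41, then -0.70).

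No gene of the 10 passed when any 1 SIRPα KO library was left out, when WT replicate 1 was left out, or when libraries of 1 code were summed. Without a SIRPα KO library the adjusted p (edgeR) was 0.095 to 0.153 for Orai1 and 0.113 to 0.147 for Nfatc3, with 16 to 17 genes called in the whole table. Without WT replicate 1 it was 0.0509 and 0.0568. With codes summed it was 0.139 and 0.141. Leaving out any 1 library, the log2 fold change stayed between -0.86 and -0.62 for Orai1 and between 0.78 and 1.22 for Nfatc3.

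For each called gene the 3 genes with the most similar profile over the 6 libraries were sought among 9146 genes, as the distance between centred log2 CPM values. Those nearest to Orai1 were Anapc16 (distance 0.144), 1110008P14Rik (0.157) and Tceal9 (0.165), beside a median distance of 1.23. Those nearest to Nfatc3 were Pign (0.0447), Trak2 (0.139) and Matr3 (0.142), beside a median of 1.54. Within the 10, Itpr1 was the nearest to Nfatc3 (0.642) and Ppp3ca to Orai1 (0.82), and Orai1 and Nfatc3 were 2.52 apart.

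The rest of the route was described by 7 lists of other genes, chosen by function. Of 111 genes, 103 were in the table and 91 passed the filter. Of these 91, 8 rose and 5 fell by edgeR, beside the same 11.7% of all genes. Their median log2 fold change was 0.096. Without any 1 SIRPα KO library none of the 91 passed. Of them 26 to 28 had an unadjusted p under 0.05, beside 2935 to 3183 genes of the whole table. Without WT replicate 1, 11 passed, and Plcb4, Mcub, Calm3 and Ppp3r1 fell short. Without WT replicates 2 and 3, 18 and 28 passed. The whole table then held 1111, 2309 and 2606 genes past the threshold without WT replicates 1, 2 and 3. With the correction 9 rose and 4 fell, beside 8.6% of all genes past the threshold. With DESeq2 16 rose and 15 fell, beside 26.5% of the genes to which it gave an adjusted p. The counts of single lists below stand beside these same shares, which for edgeR are 5.94% higher and 5.81% lower.

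Among store release and phospholipase C genes, 2 of 19 rose, none fell, and the median log2 fold change was 0.41. Plcb2, a phospholipase C that answers to G protein-coupled receptors in blood cells, was at 8.51, 6.76 and 4.3 CPM in WT against 17.9, 23.6 and 17.1 CPM in SIRPα KO (log2 fold change 1.58 ± 0.29, edgeR adjusted p = 0.0207). Plcb4, of the same enzyme family, was at 42.7, 54.8 and 22.8 CPM against 93.4, 92.5 and 83.5 CPM (1.16 ± 0.29, adjusted p = 0.0405). Neither gene's groups overlapped. Among calmodulin-dependent kinases, 2 of 8 rose and none fell. Camk4, a nuclear kinase of lymphocytes, was at 63.5, 64.2 and 63.9 CPM against 105, 103 and 88.6 CPM (0.63 ± 0.12, adjusted p = 0.0241). Camk2b, an isoform of CaM kinase II, was at 9.4 ± 1.85 CPM against 21.9 ± 2.49 CPM (SD, n = 3; 1.22 ± 0.22, adjusted p = 0.019). All 4 of these genes kept their direction and their call after the length and GC correction. With the correction 3 genes that fall outside the naming rule passed as well: Itpkc, an IP3 kinase, was higher (1.02, adjusted p = 0.0327), and Inpp1, an inositol phosphatase, and Camkk2, a kinase that activates Camk4, were lower (-0.99 and -0.69, adjusted p = 0.0409 and 0.0316). DESeq2 called 5 higher and 2 lower in the phospholipase C list and 2 higher and 2 lower among the kinases.

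Among calcium pumps and mitochondrial uptake genes, 1 of 14 rose and 2 fell. Atp2c1, the calcium pump of the Golgi, rose from 69.9 ± 12.8 to 112 ± 3.76 CPM (log2 fold change 0.68 ± 0.16, edgeR adjusted p = 0.035). Mcub, an inhibitory subunit of the mitochondrial calcium uniporter, fell from 48.7 ± 12.9 to 25.8 ± 0.357 CPM (-0.92 ± 0.21, adjusted p = 0.0348). Smdt1, which encodes the uniporter regulator EMRE, fell from 169 ± 42.1 to 96.6 ± 1.54 CPM (SD, n = 3; -0.81 ± 0.18, adjusted p = 0.0296). None of these 3 calls held after the correction, where the values were 0.27, -0.45 and -0.098.

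Among calcineurin subunits and regulators, 1 of 12 rose, Ppp3r1, and 2 fell. Ppia, which encodes cyclophilin A, the partner through which cyclosporin blocks calcineurin, fell from 3862 ± 706 to 2280 ± 84 CPM (SD, n = 3; log2 fold change -0.76 ± 0.13, edgeR adjusted p = 0.0166), and was -0.75 after the correction. Calm3, 1 of the calmodulin genes, fell from 200 ± 25 to 130 ± 6.68 CPM (-0.61 ± 0.13, adjusted p = 0.0264), a call lost with the correction (-0.25). That of Ppp3r1 was lost too (0.47, adjusted p = 0.0576).

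No gene passed among 11 other calcium entry genes (3 at an unadjusted p under 0.05, and 1 called by DESeq2) or among 12 other NFAT and NFAT shuttling genes (4 and 3). Over all 13623 genes tested, 4355 had an unadjusted p under 0.05. DESeq2 called 26.5% of the genes to which it gave an adjusted p. Among genes known as NFAT targets, 2 of 15 rose and 1 fell, beside 5.94% and 5.81% of all genes. The median log2 fold change of the 15 was -0.13, and 0.023 with the length and GC correction. Il5, the eosinophil growth factor, rose from 9192 ± 661 to 12951 ± 332 CPM (log2 fold change 0.49 ± 0.074, edgeR adjusted p = 0.0138). Il2ra, the alpha chain of the IL-2 receptor, rose from 1841 ± 377 to 3451 ± 30.2 CPM (0.91 ± 0.15, adjusted p = 0.0154). Csf2, which encodes GM-CSF, fell from 1267 ± 322 to 740 ± 17.6 CPM (SD, n = 3; -0.78 ± 0.17, adjusted p = 0.0297). The groups did not overlap for any of the 3, and all 3 calls held after the correction, with values of 0.69, 0.63 and -0.30. With the correction Il9 (1.08, adjusted p = 0.0476) and Il13 (0.87, adjusted p = 0.00744), which fall outside the naming rule, were also higher, so that 4 rose and 1 fell. DESeq2 called 2 higher and 3 lower.

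**Figure D5:**
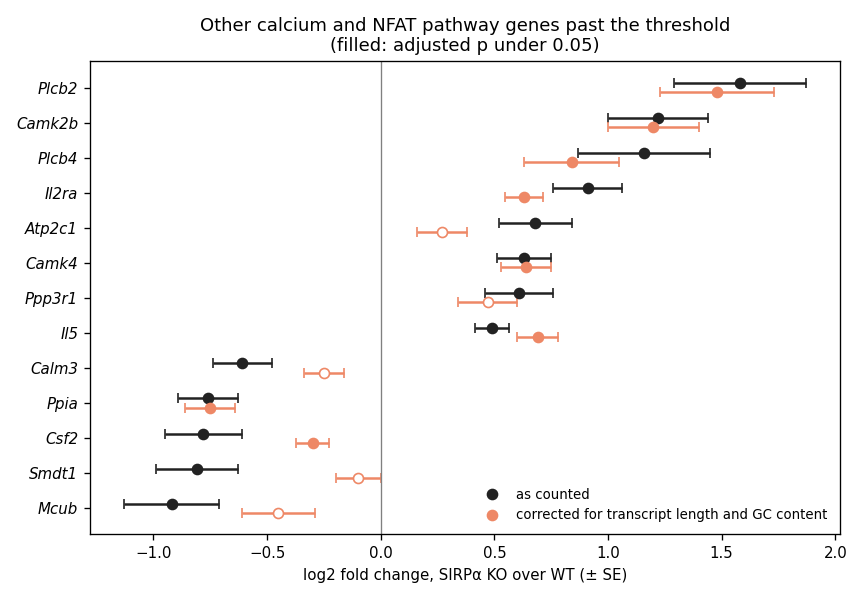
Log2 fold change of SIRPα KO over WT (horizontal axis, ± SE) of the 13 other pathway genes past an adjusted p of 0.05, as counted (black) and after correction for transcript length and GC content (orange), filled where the adjusted p is under 0.05. The 8 that rose run from Il5 at 0.49 to Plcb2 at 1.58 and the 5 that fell from Calm3 at -0.61 to Mcub at -0.92; 8 of the 13 are filled after the correction.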

How the data were processed

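RNA from cultured lung ILC2s (10 pg per library, SMARTer Ultra Low Input kit, NextSeq 500) was sequenced in 3 WT and 3 SIRPα KO libraries. The deposited values are estimated counts per gene made by the authors, and 56.9 to 60.7% of them per library were whole (with a tolerance of 0). The submitters' processing notes name Partek 10.0, STAR 2.7.8 and mm10, and the methods name another STAR version and GENCODE annotation. Of the gene columns, 17665 were used without being described singly, in the same unit.

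Counts were rounded and tested here with edgeR 4.0.16 in R 4.3.3: TMM factors, filterByExpr (minimum count 10, total 15), glmQLFit and glmQLFTest without a block, SE from the F statistic, and Benjamini-Hochberg adjustment with a threshold of 0.05. CPM are TMM-scaled. The correction subtracted natural splines (5 df) of log transcript length and GC content from each library, fitted on 8884 genes outside the lists (GENCODE M21, 17400 symbols matched directly and 188 through synonyms). Ratios were tested by exact two-sided permutation over libraries. Copies were sought with blastn 2.17.0: no transcript of another gene matched a member at 95% identity over 50% of its length. Nothing states that libraries came from separate cultures, so p-values measure the spread between libraries.

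Members and lists were chosen with earlier results of these data known. Named genes were the 10 members, Sirpa, their paralogs and direct regulators, every called gene of the 7 lists, and the 3 genes nearest to each called member.

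Alternatives were DESeq2 1.42.0, other scaling factors and filters, the correction, a replicate block, summed codes and each library left out.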

Additional observations from a re-analysis of the deposited data

How the results depend on the processing

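Past an adjusted p of 0.05 were 1600 genes by edgeR, 2 of the 10 members and 13 other pathway genes. The 3 counts were 3118, 3 and 31 with DESeq2, 10, 0 and 0 with libraries of 1 code summed, and 14, 0 and 0 with codes summed and the length and GC correction together. Leaving out 1 library gave 16 to 2606, 0 to 3 and 0 to 28. The low counts came from leaving out a SIRPα KO library or, for members, WT replicate 1. Fewer libraries were tested whenever 1 was left out. Without WT replicates 2 and 3, 2309 and 2606 genes passed. The cause of the difference was not tested. Where no member passed, 3 had an unadjusted p under 0.05 with codes summed, 4 with the correction added, and 2 to 3 with a library left out. The median log2 fold change of the members ran from -0.15 to 0.25 over all alternatives. Upper quartile factors moved the median of all genes to -0.13.

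For each gene the deviation of each library from its group mean was taken. These deviations correlated at -0.14, 0.19 and 0.045 between same-numbered libraries, so the numbers were not taken as pairs. Between the other WT and SIRPα KO libraries they correlated at -0.28 to 0.22. With a replicate block the 3 counts were 1118, 2 and 12. With block and correction they were 457, 0 and 5. There 3 members had an unadjusted p under 0.05, beside 3414 genes of the whole table. With 3 libraries in each group, the mean paired differences of the ratios equal the unpaired ones by arithmetic, so they are no check of the ratios.

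Orai1, Nfatc3, Itpr1, Ppp3ca and Nfatc2 kept their direction in every alternative. The following estimates, none past the threshold, changed sign. With the correction, the difference in the ratio of Stim2 to Stim1 was -0.13, Stim2 was -0.11, Ppp3cb -0.13 and Rcan3 -0.10. With correction and block, Stim2 was -0.067, Ppp3cb -0.13 and Rcan3 -0.077. With correction and codes summed, Stim2 was -0.067, Ppp3cb -0.15 and Rcan3 -0.054. With the correction and without WT replicate 3, Stim1 was -0.19, Stim2 -0.29, Ppp3cb -0.11, Nfatc1 -0.029 and Rcan3 -0.046. With upper quartile factors, Stim1 was -0.049, Rcan1 -0.066 and Rcan3 -0.0039. Itpr2 was 0.011 without a filter, 0.014 with the block and 0.092 with codes summed. Leaving out 1 library gave -0.022 to 0.22 for the Stim2 to Stim1 ratio, -0.22 to 0.23 for Stim1, -0.13 to 0.49 for Stim2, -0.13 to 0.19 for Itpr2, -0.011 to 0.39 for Nfatc1, -0.21 to 0.058 for Orai2, -0.095 to 0.11 for Rcan1 and -0.053 to 0.31 for Rcan3. The causes were not tested. The 2 alternatives that combine the correction with summed codes or without WT replicate 3 were chosen after seeing the data.

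Every member had 472 to 5040 reads in each library. With 3 libraries a group, an exact permutation test cannot go below p = 0.1.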
